A study of Mus musculus with 10 samples.

Results

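The regions described here are 428 short stretches of the mouse genome in which 5-carboxylcytosine (5caC) was listed at many neighbouring CG sites in embryonic stem cells labelled Tdg and grown in serum-2i. Each is a maximal run of at least 10 listed autosomal positions with gaps of at most 100 bp between neighbours. The runs held 4854 of 683575 autosomal positions listed for that group (0.710%) and 0.952% of its summed coverage. The same group formed 447812 stretches in all when single positions are counted as stretches. The runs were chosen on the listing of positions in serum-2i Tdg cells, so their number, size and coverage in that group are description, and no test was made on them.

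The series comprised 10 samples in 5 groups, each with 2 technical replicates of 1 input. The deposited table gives values for 4 groups, namely Tdg cells with both inhibitors (serum-2i Tdg), Tdg cells without them (serum Tdg) and the wild-type (wt) cells of either medium. The fifth group was a negative control from triple Tet knockout cells kept in serum, and its DNA is not analysed here. Every culture was feeder-free, with 15% FBS and 1000 units/ml of the cytokine LIF. Serum-2i medium also held 3 µM CHIR99021, an inhibitor of GSK3, and 1 µM PD0325901, an inhibitor of MEK. The labels give the gene name Tdg without the kind of alteration, and they name neither the line nor the number of clones.

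5caC is the last product of the stepwise oxidation of 5-methylcytosine by the TET dioxygenases. Thymine DNA glycosylase (TDG) excises 5caC, after which base excision repair restores an unmodified cytosine, so the mark is scarce in cells with working TDG and reports where active demethylation has been under way. Serum-grown mouse embryonic stem cells carry more DNA methylation than cells kept with both kinase inhibitors, which are regarded as closer to the naive state.

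Values are coverages of a CG position, in steps of 0.5, and were read as means over the 2 technical replicates of a group, which no label states. The autosomal coverages summed to 12267100 (serum-2i Tdg), 7443260 (serum Tdg), 886982 (serum-2i wt) and 42957.5 (serum wt). Listing began at a coverage of 6 in either Tdg group, at 4 in serum-2i wt and at 3 in serum wt cells, so a position that is not listed has an unknown value and not a value of 0. With 1 value per group there is no spread between replicates to set a difference against. Intervals below are exact 95% binomial (Clopper-Pearson) or conditional binomial intervals. They cover counting error only: the labels name no molecular identifiers, neighbouring positions can share reads, and positions of 1 run share their location. Ratios between the Tdg groups below are of listed coverage, as shares of the group's sum, so an unlisted position adds nothing. Beside them stands a limit in which each position listed in only 1 Tdg group is given 5.5 in the other, the highest value below the lowest listed one. It bounds the ratio only if listing was a plain minimum on this coverage, and the listing rule was not given.

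The base-level layout of a run can be shown where it meets a promoter window, since the sequence of 300 bases around annotated starts was at hand (RefSeq, GRCm38.p6, 250 bases before to 50 after the start, the same assembly as mm10). On the 18 autosomes with such windows, 15 of 418 runs met one. The 4 windows of protein-coding genes with at least 8 run positions are printed because they show how densely listed sites lie, 5′ to 3′ on the gene's strand, with each CG listed in serum-2i Tdg cells in capitals and any other CG in lower case.
Gpat2, chr2:127424949-127425248, + strand: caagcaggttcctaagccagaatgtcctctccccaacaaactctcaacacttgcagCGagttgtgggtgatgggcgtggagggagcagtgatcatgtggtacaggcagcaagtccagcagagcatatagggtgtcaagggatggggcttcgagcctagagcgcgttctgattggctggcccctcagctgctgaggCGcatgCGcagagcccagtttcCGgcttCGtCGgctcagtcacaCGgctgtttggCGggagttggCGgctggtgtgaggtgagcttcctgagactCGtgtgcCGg
Rpl39l, chr16:10169978-10170277, + strand: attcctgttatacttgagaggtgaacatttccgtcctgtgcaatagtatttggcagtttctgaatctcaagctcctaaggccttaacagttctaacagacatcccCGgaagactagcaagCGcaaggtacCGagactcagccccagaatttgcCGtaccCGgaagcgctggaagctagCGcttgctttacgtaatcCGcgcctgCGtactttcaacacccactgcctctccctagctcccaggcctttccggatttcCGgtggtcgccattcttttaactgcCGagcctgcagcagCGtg
Arhgap30, chr1:171388710-171389009, + strand: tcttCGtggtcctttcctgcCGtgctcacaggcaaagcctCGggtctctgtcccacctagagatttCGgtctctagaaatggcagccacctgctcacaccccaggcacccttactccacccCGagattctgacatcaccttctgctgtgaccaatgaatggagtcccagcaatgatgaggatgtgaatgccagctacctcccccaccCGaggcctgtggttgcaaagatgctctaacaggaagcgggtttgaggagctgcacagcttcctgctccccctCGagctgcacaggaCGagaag
Zfp560, chr9:20385109-20385408, - strand: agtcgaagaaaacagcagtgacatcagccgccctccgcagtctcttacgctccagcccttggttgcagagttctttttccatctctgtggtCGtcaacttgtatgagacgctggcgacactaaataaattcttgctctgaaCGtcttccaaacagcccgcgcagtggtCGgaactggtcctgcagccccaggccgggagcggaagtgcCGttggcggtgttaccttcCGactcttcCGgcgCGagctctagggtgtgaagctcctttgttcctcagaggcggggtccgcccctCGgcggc

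Gpat2, a testis-expressed acyltransferase-like gene of the piRNA pathway, had a run of 104 bp at its start, and each of the 10 CGs of the window within the run was listed. The 10 positions had coverages of 12.5 at the lowest, 20.25 at the median and 45.5 at the highest in serum-2i Tdg cells, against 7 positions at 6.5, 23.5 and 40 in serum Tdg cells, and neither wt group listed one in the run. Rpl39l, a testis-enriched paralogue of a ribosomal protein gene, had 11 of 16 such CGs listed. In serum Tdg cells its run held only 2 positions, at 18 and 56. Arhgap30 had 8 of 9 CGs listed, and the zinc-finger gene Zfp560 had 8 of 19. Over the 15 runs, 91 of the 133 CGs in the shared stretches were listed (68.4%, interval 59.8 to 76.2), against 7167 of 395568 CGs in all autosomal promoter windows (1.81%). The first share is set partly by the rule, since a run is made of listed positions. Within the runs, several unlisted CGs stood between listed ones in the Rpl39l and Zfp560 windows, 1 did in Arhgap30 and none in Gpat2.

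Most runs were only slightly longer than the rule demanded. The number of positions had a median of 11 and a highest value of 30. Of the 428 runs, 194 had exactly 10 positions, 108 had 11, 51 had 12, 34 had 13, and 29 had 15 or more. Widths lay between 56 and 863 bp, with a median of 320.5 bp, and neighbouring positions were a median of 25 bp apart. The stretches just outside the rule were 409 of 9 positions, whose coverage had a median of 17.5, against 18.5 in the 194 runs of 10.

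Coverage was uneven within a run. Run positions had a median coverage of 18.0 and quartiles of 12.0 and 29.9, while serum-2i Tdg positions outside runs had a median of 13.5 and quartiles of 9.5 and 21.0. The highest position of a run stood at a median of 2.70 times that run's median and carried a median of 20.2% of its coverage. Of 4426 neighbouring pairs inside runs, 1745 (39.4%) were at least 2-fold apart in coverage. The outermost positions had a median of 15 and the inner ones 19. A run is therefore a row of individually variable sites and not a plateau of equal coverage.

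The density of listed positions fell with distance from the runs. For serum-2i Tdg cells the rule sets much of this fall, since it leaves no listed position within 100 bp outside a run. Listed serum-2i Tdg positions numbered 33.9 per kb inside runs, a value the rule sets, 2.40 per kb at 0.1 to 0.5 kb from the run's edges, 1.16 at 1 to 2 kb and 0.737 at 50 to 100 kb. The groups that the rule did not use peaked at the same places. Serum Tdg cells had 15.0 listed positions per kb inside the runs and 0.485 at 50 to 100 kb, serum-2i wt cells 2.28 and 0.126, and serum wt cells 0.272 and 0.0121. These are counts per length of DNA rather than per CG available, and the part of CG density in the peaks was not tested.

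**Figure D1:**
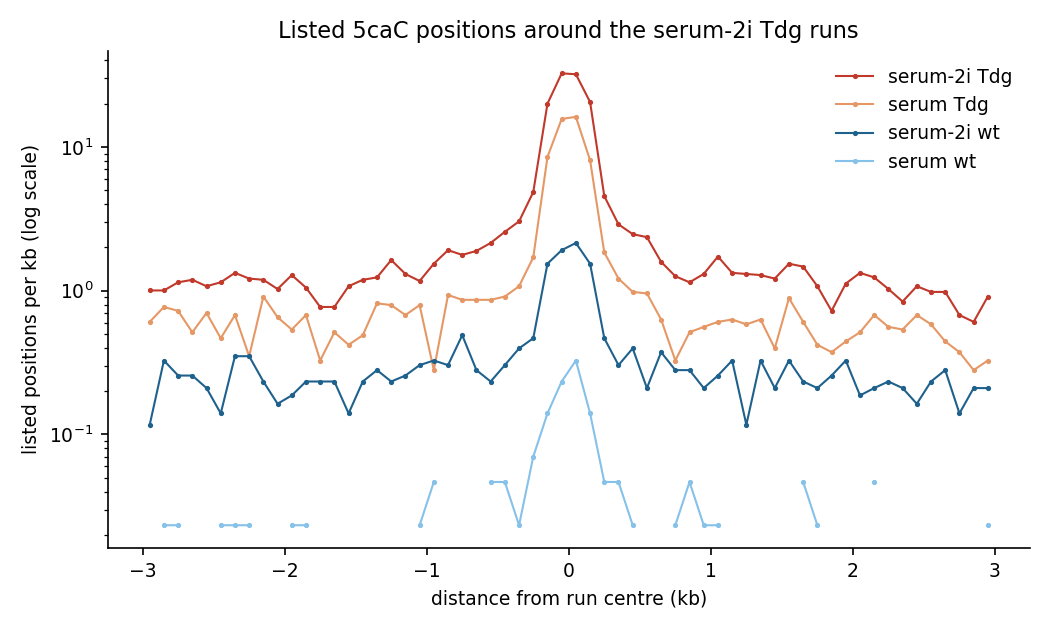
Listed positions per kb (log scale) in 100-bp bins against distance from the centre of the 428 runs, in kb, with 1 line per group; bins with no listed position are not drawn. The serum-2i Tdg line, which the rule sets at the centre, is joined there by peaks of the other 3 groups.

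The run with most positions lay inside Wnt3a, which encodes a WNT ligand of the early mesoderm (chr11:59249256-59250104, 40647 bp from the gene's annotated start). Its 30 positions in serum-2i Tdg cells had coverages of 6.5, 23.5 and 66 at the lowest, median and highest. Serum Tdg cells listed 10 positions there (6, 11.5 and 49.5), serum-2i wt cells 3 and serum wt cells 2. The log2 ratio of listed coverage, serum-2i Tdg over serum Tdg, was 1.56, and its lower limit was 0.87, since 20 of the positions were unlisted in serum. The second by number of positions, and the widest at 863 bp, lay in Akap12, a scaffold gene for protein kinase A (chr10:4354511-4355373), with 27 positions at 7, 20 and 88.5. Serum Tdg cells listed 10 of its positions and serum-2i wt cells 3.

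Sall4, a zinc-finger transcription factor gene of pluripotent cells, held the run with the next number of positions, 22, and a further one of 11 located 5009 bp away (chr2:168755428-168755993 and chr2:168750088-168750418). In the larger one coverages were 9, 15 and 67 in serum-2i Tdg cells, against 13 positions at 10.5, 21.5 and 58.5 in serum Tdg cells, and the log2 ratio of listed coverage was -0.18 (lower limit -0.39). The other Sall4 run had 7.5, 16 and 90 in serum-2i Tdg cells, against 9 positions at 7, 16 and 121 in serum Tdg cells, and its ratio of -0.88 (limits -1.01 and -0.79) was further towards serum. Tmeff1, which encodes a transmembrane protein with EGF-like and follistatin-like modules, had 20 positions (6.5, 27 and 81.5) in serum-2i Tdg and 8 (6.5, 9.25 and 21.5) in serum Tdg cells, with a log2 ratio of 2.10 and a lower limit of 1.29. The autophagy gene Atg2a also had a run of 20 positions (8, 21.75 and 50.5), and serum Tdg cells listed 9 positions in it. Among the remaining runs with most positions, those in Maml3 (a Notch coactivator gene), in Pced1b, 44756 bp from the chemokine gene Ccl25 and 14499 bp from the amino acid transporter gene Slc38a1 had 18 each, and that in the lysine methyltransferase gene Smyd2 had 17. Igsf21, a synaptic adhesion gene, had 1 of the 5 widest runs (671 bp, 17 positions) and a single serum Tdg position in it.

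**Figure D2:**
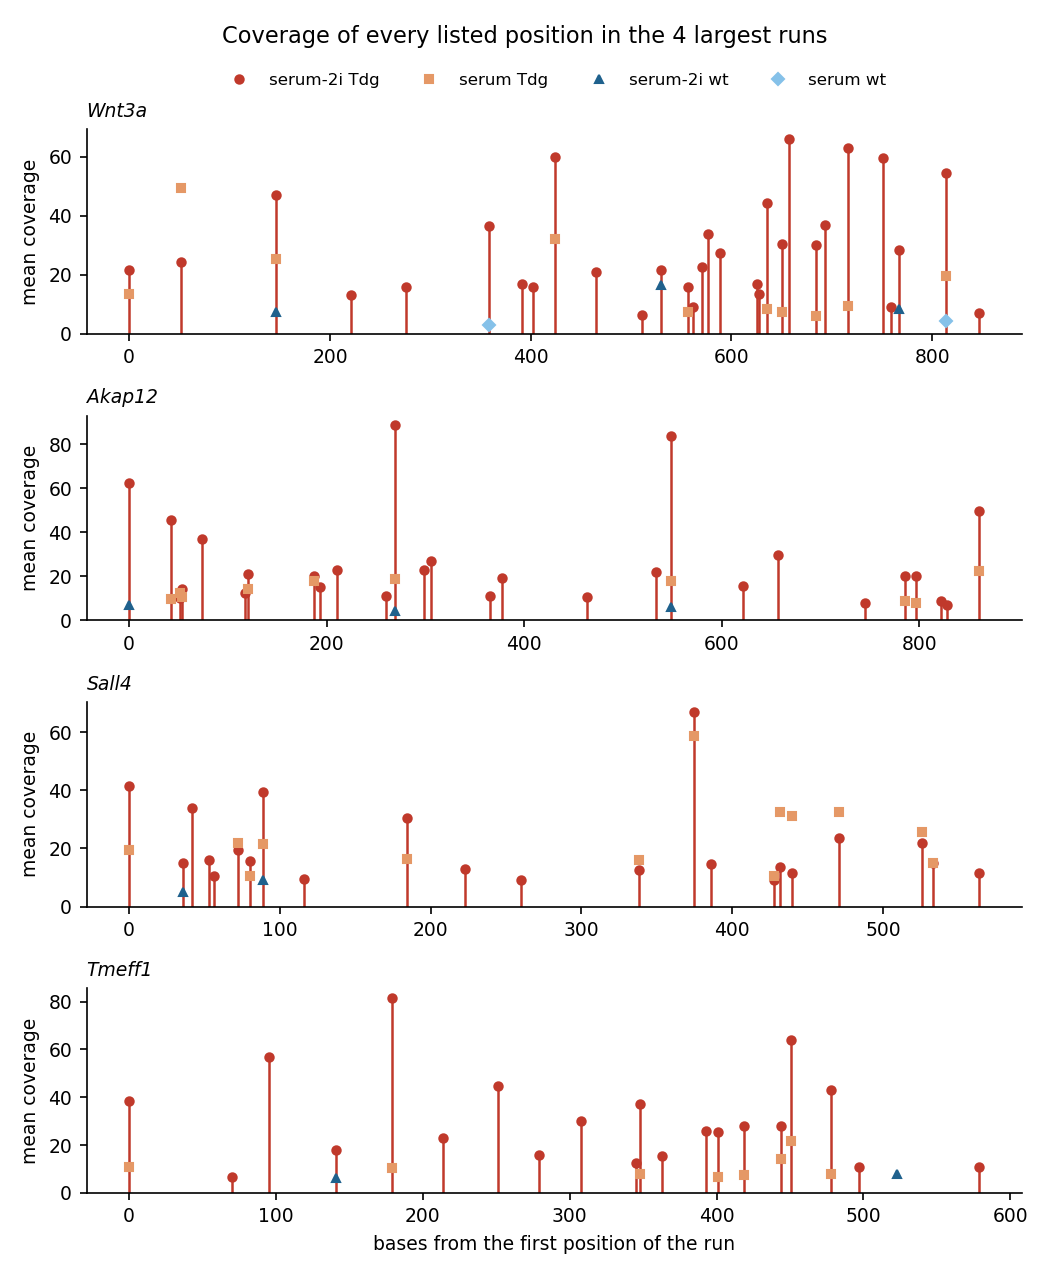
Mean coverage of each listed position against bases from the run's first position in the 4 runs with most positions (Wnt3a, Akap12, Sall4, Tmeff1); stems and circles are serum-2i Tdg, squares serum Tdg, triangles serum-2i wt and diamonds serum wt. Coverage differs widely between neighbouring positions, and wt cells list at most 3 positions per group in any of the 4 runs.

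By median coverage, the run in Lrmp led, with 12 positions at 9, 43.5 and 112 in serum-2i Tdg cells against 5 at 7.5, 13.5 and 17 in serum Tdg cells. Next came a run where the spans of the protocadherin gene Pcdh12 and the ubiquitin ligase gene Rnf14 overlap (median 43), one in the vitamin C transporter gene Slc23a2 (41.5), one 260116 bp from Zfp64 (39.75) and one 8979 bp from the forkhead gene Foxb1 (39.5). The highest position of the last was at 188.5 in serum-2i Tdg cells, and its 9 serum Tdg positions were at 14, 30.5 and 102. By mean coverage this run led (56.8), and by sum that of Wnt3a (869.5). These 5 runs had only 10 or 12 positions, while the 5 with most positions had medians of 15 to 27.

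Most runs lay within genes, and few lay near an annotated start. Of the 428, 304 overlapped a protein-coding span (71.0%, interval 66.5 to 75.3), 5 of them more than 1 span. By position this was 70.7% in runs, against 56.6% of all autosomal serum-2i Tdg positions. The annotation used gave spans and not exons, so exon and intron are not told apart here. Genes with a run were long, with a median span of 71.1 kb against 17.5 kb for all autosomal protein-coding genes. Long genes hold more of any set of positions, and spans of genes holding other listed positions were not computed. The length is therefore not shown to be particular to runs. For 241 runs within a single gene, that gene had an annotated start, or several, in the promoter table. The nearest of these lay at a median of 31868 bp from the run, and within 1000 bp in 13 cases (5.39%). The matching values over all listed positions were not computed, so distance from starts is not shown to set the runs apart. The part of gene length in the share within genes was not tested.

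Near the ends of gene spans, the share of runs differed between the Tdg groups. Distance was taken to the nearer end of a protein-coding span, be it where the gene starts or where it stops. At most 1000 bp away lay 34 of the 428 serum-2i runs (7.94%, interval 5.56 to 10.9). The same held for 211 of the 1107 runs found by the same rule in serum Tdg cells (19.1%, 16.8 to 21.5). The intervals do not overlap, but the share over all autosomal serum Tdg positions was not computed. Whether the difference is particular to runs is therefore not known. By position, 6.88% of run positions (6.18 to 7.63) were so placed, above the 5.41% of all autosomal serum-2i Tdg positions. The share overlapping a protein-coding span was alike in size, 71.0% against 69.1% (66.3 to 71.8). Outside coding spans lay 124 serum-2i runs, at a median of 32285 bp from the nearest one, and 27 of them overlapped a noncoding gene, a long noncoding RNA in 22 cases.

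Runs were spread over every autosome, from 10 each on chromosomes 16 and 18 to 43 on chromosome 5. Relative to the number of listed positions, chromosome 15 had most, 89.8 runs per 100000 positions, followed by chromosome 5 (85.1) and chromosome 19 (81.8), and chromosomes 16 (43.4) and 1 (43.8) had fewest, against 62.6 over all autosomes. Chromosome 11 had 29 runs, or 56.6 per 100000. Runs were rarely close together, with a median distance of 1927510 bp between neighbours and 24 neighbouring pairs within 100000 bp. Spen, which encodes a transcriptional repressor that binds Xist RNA, was the only protein-coding gene with 3 runs, holding 13, 17 and 13 positions (chr4:141473961-141474336, chr4:141478341-141478716 and chr4:141478826-141479124), and 9 other genes had 2 each. The first gap between them was 4004 bp and the other 109 bp, just over what the rule allows. Summed over its 3 runs, Spen had 43 positions (serum-2i Tdg), 36 (serum Tdg), 2 (serum-2i wt) and 2 (serum wt).

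**Figure D3:**
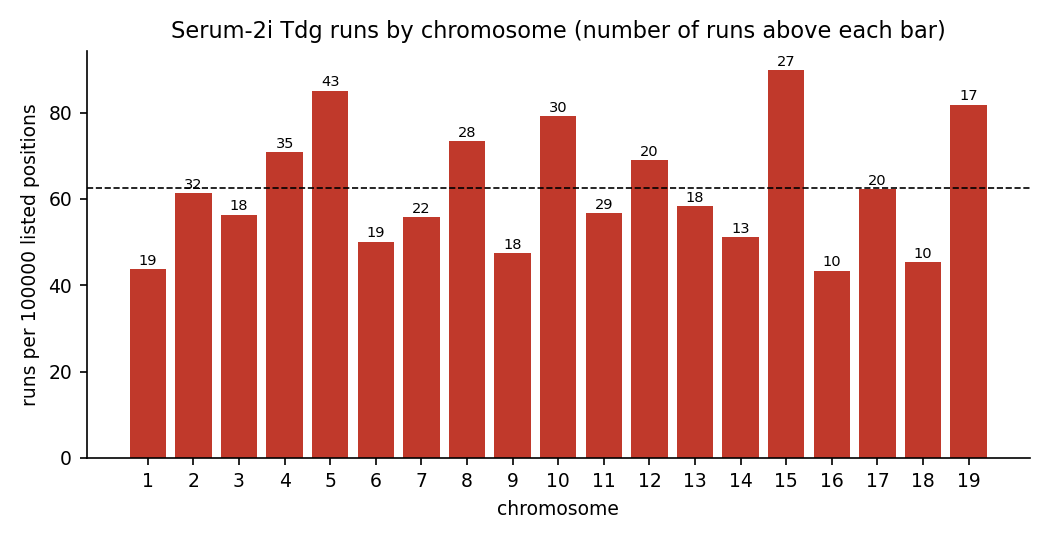
Runs per 100000 listed serum-2i Tdg positions for each autosome, with the number of runs above each bar and the value over all autosomes (62.6) as a dashed line. Chromosomes 15, 5 and 19 stand highest and chromosomes 16 and 1 lowest.

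Serum-grown Tdg cells listed many of the same positions. Of the 4854 run positions, 1993 were also listed in serum Tdg cells (41.1%, interval 39.7 to 42.5), against 28.8% of all autosomal serum-2i Tdg positions. The share was larger for runs at every level of coverage, for instance 30.4% (28.3 to 32.5) in runs and 25.2% outside at a coverage of 10 to under 20, and 72.3% (68.8 to 75.6) against 65.0% at 40 or more. It moved with the size of the stretch: 22.5% at isolated positions, 32.8% in stretches of 2 to 4, 39.6% in 5 to 9, 40.9% in 10 to 14 and 42.9% in 15 to 30. Positions of the serum Tdg runs showed the opposite relation. Only 31.9% of their 13713 positions were listed in serum-2i Tdg cells, against 52.9% of all autosomal serum Tdg positions.

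Wild-type cells in the same medium listed the run positions less often. Serum-2i wt cells had 298 of the 4854 (6.14%, interval 5.48 to 6.85), against 7.94% of all autosomal serum-2i Tdg positions, although coverage in Tdg cells was higher in runs. This was not particular to the runs: the share was 8.32% at isolated positions, 7.75% in stretches of 2 to 4, 7.07% in 5 to 9, 6.18% in 10 to 14 and 5.75% in 15 to 30. Positions of the serum Tdg runs were also listed by serum-2i wt cells less often (1.69%) than all autosomal serum Tdg positions (5.27%). Set against positions of like coverage the shares were 3.90% (3.08 to 4.87) in runs and 6.81% outside at 10 to under 20, and 14.1% (11.6 to 16.8) against 20.5% at 40 or more. With a common minimum coverage of 6 they were 4.51% in runs and 6.22% over all positions. Serum wt cells had 35 of the run positions (0.721%, interval 0.503 to 1.00), against 0.583% over all, and these did not differ beyond the interval. A stretch of 10 or more positions occurred in neither wt group.

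**Figure D4:**
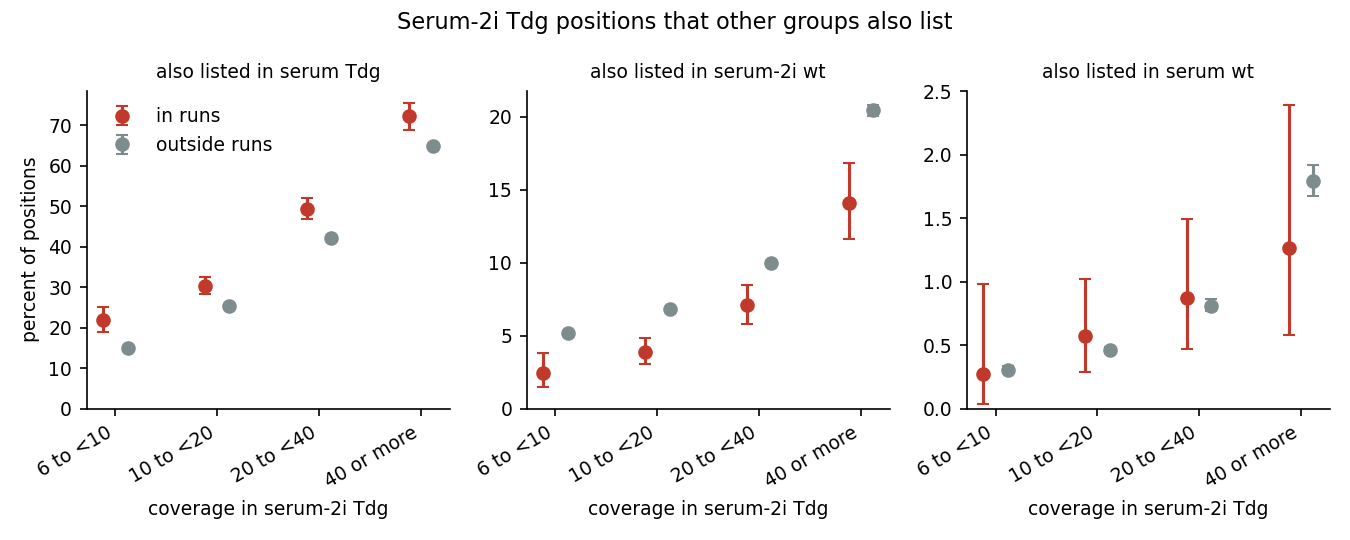
Percent of serum-2i Tdg positions also listed in serum Tdg, serum-2i wt and serum wt cells, by coverage in serum-2i Tdg cells, for positions in runs (red) and outside (grey), with exact 95% intervals. Run positions lie above the others in serum Tdg and below them in serum-2i wt cells in each coverage class, and the intervals overlap for serum wt.

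Some runs were runs in both media. A serum Tdg position lay in 376 of the 428 (87.9%), at least 10 in 60, and none in 52. Among the 11299 serum-2i Tdg stretches of 5 to 9 positions, 8303 (73.5%) held one. Runs thus lacked a serum Tdg position less often than the smaller stretches did, and the part of stretch size in this was not tested. Overlap with a run of serum Tdg cells was found for 56, which is 13.1% of the serum-2i runs and, as 55 runs, 4.97% of the serum ones. Of the 11299 serum-2i Tdg stretches of 5 to 9 positions, 2.41% overlapped a serum run. Of these 56, 12 (21.4%, interval 11.6 to 34.4) held a serum wt position, against 19 of the 320 with scattered serum Tdg positions (5.94%, 3.61 to 9.12) and 1 of the 52 with none. The share with a serum-2i wt position was similar in all 3 classes, 44.6%, 49.7% and 42.3% in the same order. The median coverage of the classes in serum-2i Tdg cells was 17.25, 18.625 and 17.375.

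Runs that no serum Tdg position entered included one 100 bp from the start of Nos1, the neuronal nitric oxide synthase gene (chr5:117866939-117867415), whose 17 positions had coverages of 8, 31.5 and 106. Tspan5, a tetraspanin gene, had 16 (9, 19 and 52.5), Fryl had 15 (6.5, 17.5 and 35), a stretch 5928 bp from the respiratory chain assembly gene Cox7a2l had 14 (13.5, 31.75 and 85.5) and the growth factor receptor gene Igf1r had 13 (8, 23 and 60.5). Serum-2i wt cells had 4 listed positions inside the Fryl stretch, 2 in each of those at Cox7a2l and Igf1r, and none at Nos1 or Tspan5. These values show listed sites in serum-2i cells at coverages well above 6, while the serum values are only known to be unlisted.

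The 5 runs chosen for the highest summed serum Tdg coverage were those of Cda, Wnt10b, Hdac5, Pdzd7 and Bcl3. In Cda, the cytidine deaminase gene, 11 positions had 7, 29 and 61.5 in serum-2i Tdg cells against 11 positions at 20.5, 110.5 and 188 in serum Tdg cells, with a log2 ratio of -2.53 (interval -2.65 to -2.40) and every position listed in both groups. Wnt10b, another WNT ligand gene, had 10 positions (13, 22 and 36) against 13 (19.5, 82.5 and 210), a ratio of -3.02 (upper limit -2.92), the lowest of all runs. The class IIa histone deacetylase gene Hdac5 had 11 against 17 and a ratio of -3.00 (upper limit -2.78), and Bcl3, an IkappaB family gene, had 13 against 24 positions. Pdzd7, a deafness-linked scaffold gene of sensory hair cells, had 14 against 13. In each of these 5 the serum-2i values were lower than the serum values at the median and at the highest position. The choice by serum coverage favours this direction, so it is description only.

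Over the 376 runs with a serum Tdg position, the share of coverage was at least 2-fold higher in serum-2i Tdg cells, with the interval excluding no difference, in 179 (47.6%), at least 2-fold lower in 47 (12.5%) and between in 150. The same calls were made for 39.2% and 17.0% of 8303 stretches of 5 to 9 positions. As the rule selects on the serum-2i side, a shift towards higher values is built into both sets. The median log2 ratio was 0.85 in the runs and 0.53 in the smaller stretches. With unlisted serum positions at 5.5, only 67 runs (17.8%, interval 14.1 to 22.1) remained at least 2-fold higher, against 15.3% of the smaller stretches, and the median was 0.30 against 0.09. With unlisted serum-2i positions at 5.5, 45 runs (12.0%) remained at least 2-fold lower, against 16.3%. Most of the 179 higher calls therefore depended on what unlisted serum positions hold, which is not known. The 52 runs with no serum Tdg position stand outside these counts. With unlisted serum positions at 5.5, 36 of them (69.2%, interval 54.9 to 81.3) were at least 2-fold higher. The same held for 53.8% of the smaller stretches with no serum Tdg position. At single positions listed in both Tdg groups, a choice that requires listing in serum, the direction of scaled coverage turned. At least 2-fold higher in serum-2i were 239 of 1993 run positions (12.0%, interval 10.6 to 13.5), against 6.96% of all 196610 such positions. At least 2-fold lower were 585 (29.4%, 27.4 to 31.4), against 38.5%. The median log2 ratio of scaled coverage was -0.44 in runs and -0.67 over all. Without scaling, median coverages at these positions were 25 (serum-2i Tdg) and 18.5 (serum Tdg) in runs, and 18.5 and 17.5 over all. The turn was thus seen only after scaling to the group sums. For the runs as a whole the summed listed coverage had a log2 ratio of 0.36 (0.35 to 0.37). It was 0.00101 with unlisted serum positions at 5.5 and -0.48 when only positions listed in both groups were summed, so no direction is drawn from it.

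**Figure D5:**
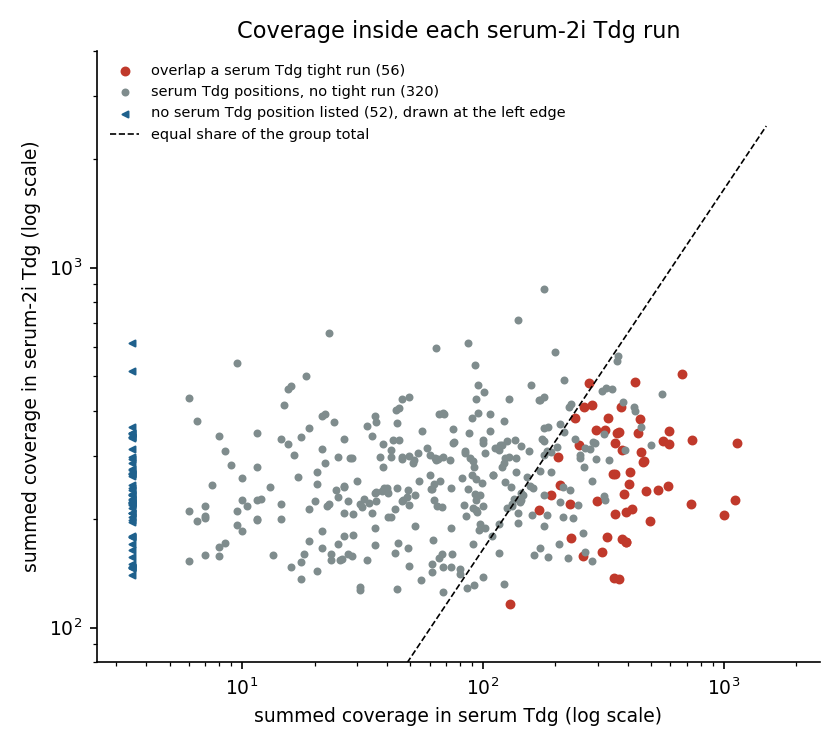
Summed coverage inside each run in serum-2i Tdg (vertical) against serum Tdg cells (horizontal), both on log scales, with the dashed line at an equal share of each group's total; runs with no listed serum Tdg position are drawn at the left edge. Runs that overlap a serum run lie near or right of the line, and 179 runs with listed serum coverage lie at least 2-fold to its left.

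Among the wt groups the runs with most positions were few. Sfi1, a centrosomal protein gene, had a run of 13 positions in serum-2i Tdg cells (8.5, 19.5 and 119) with 4 serum Tdg, 8 serum-2i wt and 1 serum wt position. That of Plin3, a lipid droplet protein gene, had 11, 11, 5 and 1 in the same order of groups. The runs in the postsynaptic scaffold gene Tanc1, in Fryl and in the zinc transporter gene Slc39a11 each had 4 serum-2i wt positions, as did 3 further runs. A run 9728 bp from Zfp978 had 3 serum wt positions, the highest number, beside 11 in serum-2i Tdg and 8 in serum Tdg cells. The runs inside Bcl3, Hdac5, Ppp2r5c, Ptk7 and Wnt3a had 2 serum wt positions each. A further 26 runs had 1.

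Genes of 14 lists relevant to embryonic stem cells were checked for a run within the span or within 5 kb. This held for 9 of 263 autosomal symbols (3.42%, interval 1.58 to 6.40), against 1.57% of all 20665 autosomal protein-coding genes. The interval begins almost at the share of all genes. Gene span was not matched, and the lists were chosen with earlier results of these data known. No enrichment is therefore read from this share. No gene of the bivalent lineage regulators (0 of 38), imprinted genes (0 of 31), DNA methylation and demethylation enzymes (0 of 18), primed pluripotency (0 of 14), neural (0 of 14) or housekeeping genes (0 of 13) had one. Fibroblast markers had 2 of 10 (Fn1 and Pdgfra), and 1 gene each was found among general pluripotency (Sall4, of 13), naive pluripotency (Lifr, of 20), WNT pathway (Tcf7, of 19), ERK pathway (Fgfr2, of 23), Polycomb (Kdm2b, of 23), extraembryonic (Lama1, of 20) and germline genes (Asz1, of 18). At these list sizes 1 gene more or fewer changes a share by several percentage points, and no list is singled out by its count.

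Lifr, the receptor gene for LIF, had a run 2628 bp from its start (chr15:7137615-7137914) with 10 positions at 7.5, 26.25 and 62.5 in serum-2i Tdg cells, against 4 at 8.5, 11.25 and 23 in serum Tdg cells, and a log2 ratio of 1.52 with a lower limit of 0.83. In Tcf7, a nuclear effector gene of WNT signalling, both Tdg groups listed 10 positions, at 12.5, 23.75 and 47.5 in serum-2i and at 7.5, 33.25 and 115.5 in serum cells, a ratio of -1.32 (interval -1.48 to -1.16) with every position listed in both groups. Kdm2b, which recruits a Polycomb complex to unmethylated CG islands, had 11 positions (8.5, 20 and 61) against 7 (6.5, 13.5 and 31.5) and a ratio of 0.87 (limits 0.53 and 0.90). The run of Tcf7 was thus at least 2-fold lower in serum-2i, while the limit left that of Lifr under 2-fold. Beside Sall4, described above, the remaining list genes had runs of 10 to 12 positions. In Fgfr2 the ratio was 0.43 (lower limit 0.18), in Asz1 0.49 (-0.21), in Fn1 0.28 (-0.17) and in Lama1 -0.08 (-0.15), so none of these reached 2-fold. Pdgfra, the receptor gene for platelet-derived growth factor, had 11 positions at 6, 18 and 34 in serum-2i Tdg cells, and no other group listed a position in that run.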

How the data were processed

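Embryonic stem cell DNA was assayed for 5caC at CG sites. Per the labels' protocols, 5-hydroxymethylcytosine was glycosylated and unmodified CGs were methylated, an engineered SssI methyltransferase replaced the carboxyl group with an azide tag, and tagged fragments were enriched and sequenced on an Ion Proton. Coordinates are on mm10, which the submitters' processing notes name. The aligner, the site caller and the listing rule were not given in the sources used here.

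Each line of the deposited table gives the authors' coverage, a signal that is never negative, of 1 position in 1 group. These values are multiples of 0.5 and were read as means of 2 replicates. Control DNA is not analysed here. All 15300 listed positions inside promoter windows had the C of a CG at the next base, so deposited positions count from 0, and 1 was added to give the coordinates printed here. Summed listed coverage is given for each group. It is not a measure of sequencing depth, and read numbers are not known here.

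Runs were found in Python 3.11.15 with pandas 2.3.3, numpy 2.4.6 and scipy 1.17.1, and plotted with matplotlib 3.10.9. The code was tested on simulated data. Spans and promoter sequences came from RefSeq (GRCm38.p6). Promoter windows of chromosome 18 were not used here, and a missing start is left out. A distance to a gene's start is to the nearest of its annotated starts. Coverage was scaled to each group's autosomal sum. The members and gene lists were chosen with earlier results of these data known. Of the lists' 274 symbols, all were found. Named runs were those with most positions (10), widest (5), with the highest median coverage (5), with most serum-2i wt (5) or serum wt (10) positions, with no serum Tdg position (5 with most positions) and with the highest serum Tdg sum (5), plus genes with 3 runs or more and list genes. Runs at promoter starts were chosen after their values were seen. Alternatives changed the gap, the fewest positions, the coverage minimum, the scaling and the distance to gene starts and ends. One added after the data were seen gave unlisted positions a value of 5.5.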

Additional observations from a re-analysis of the deposited data

How the results depend on the processing

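The 9 summary values were recomputed under each alternative, and those not printed here moved by less than their interval or, for the median coverage, by 0.5 at most. A largest gap of 50 bp gave 80 runs, 77.5% in protein-coding genes, 47.7% of positions also in serum Tdg, 14 overlaps with serum Tdg runs, a median coverage of 19.5 and a log2 ratio of summed coverage of 0.23. A gap of 200 bp gave 1481, 65.1%, 38.0%, 208, 16.5 and 0.35 in the same order. At least 15 positions gave 29, 86.2%, 42.9%, 5, 20.5 and 0.53. At least 8 positions gave 1570 runs, 278 overlaps and 0.34. A coverage of at least 10 gave 192 runs, 42.5% also in serum Tdg, 1.01% also in serum wt, 24 overlaps, a median of 22 and 0.47. With a distance of 2 kb, 12.9% of runs lay near the start or end of a gene span. With a common minimum of 6, 4.51% of run positions were also listed by serum-2i wt cells and 0.185% by serum wt cells. The log2 ratio was 0.21 scaled to listed positions, 1.08 not scaled, and reversed to -0.48 over positions listed in both Tdg groups, an alternative that by construction drops positions missing from serum. Added after the data were seen, unlisted serum Tdg positions at 5.5 gave 0.00101. Adding X, or requiring that 0.5 of a run be covered by serum runs, left every one of these values within its interval or, for counts, within 1.5 times.

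No paired analysis was possible because the table holds 1 mean per group and no value per replicate. For the same reason leaving out a replicate was not run. Few listed values limit the wt groups most: their summed listed coverages are far lower, their listing minima differ, and an unlisted position has no value. The part of sequencing depth in this was not tested, since read numbers are not known here.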

Other observations

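On the X chromosome the same rule found 1 run, 7984 bp from Zcchc12 (chrX:36207148-36207494), with 10 positions at 8.5, 13.5 and 27.5 at the lowest, median and highest in serum-2i Tdg cells and none in the other groups.

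Several list genes were the nearest gene to a run beyond 5 kb. Dppa3, a germline and naive-state gene, lay 14.1 kb from a run of 15 positions (7.5, 24.5 and 93 in serum-2i Tdg cells) in which serum Tdg cells listed 2, with a log2 ratio of listed coverage, serum-2i Tdg over serum Tdg, of 4.03 and a lower limit of 1.75 with unlisted serum positions at 5.5. Tbx3, a transcription factor gene of naive cells, lay 95.2 kb from a run with a ratio of 3.52 (lower limit 1.67). Socs3, a feedback inhibitor gene of LIF signalling, lay 10.1 kb from a run with 0.31 (lower limit -0.03). The germline gene Piwil1 lay 38.7 kb from a run with 3.56 (1.504), the imprinted gene Dio3 38.8 kb from one with 0.16 (-0.33), the trophoblast gene Tfap2c 22.6 kb from one with 0.00 (-0.21) and the homeobox gene Msx1 69.1 kb from one with -0.43 (-0.52). No serum Tdg position entered the runs nearest to Rybp (41.5 kb), Msx2 (75.8 kb) and Jarid2 (2 runs, 129 kb and 245 kb) or a second one near Pdgfra (179 kb). These are all the list genes so placed, and nearness in sequence was the only link examined.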
